A study of Homo sapiens with 6 samples.

Results

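FUT1 and 9 related genes of fucosylation were followed in IMR32 cells, a human line from a neuroblastoma, after teriflunomide. The 10 genes are FUT1, FUT2, FUT4, FUT8, FUT9, FUT10, FUT11, POFUT1, POFUT2 and GMDS, and their members on the array are all probe sets annotated to 1 of these symbols alone. This gave 24 of the 41091 probe sets with a single gene symbol, for 10 of 19775 genes. The platform annotation lists FUT10 as POFUT3 and FUT11 as POFUT4, and both were found by gene identifier. FUT1 was chosen because its difference between the groups of this same comparison was the 4th largest of 11998 genes, and its relatives were added with these results known. The differences of the 10 genes are therefore given as a description, without p-values.

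The study profiled RNA on 6 Affymetrix arrays. The teriflunomide group held 3 arrays of cells kept in 118 µM of the drug, an inhibitor of the pyrimidine synthesis enzyme dihydroorotate dehydrogenase. The DMSO group held 3 arrays of cells given 0.1% DMSO. Both exposures lasted 24 h and began 12 h after the cells were plated. The labels do not say whether the drug wells also held DMSO. They call the arrays biological replicates without naming separate cultures, so p-values measure array-to-array spread only, and that spread may be technical. IMR32 is 1 line, so the values describe 1 genetic background.

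Fucosyltransferases move the sugar fucose from its activated form, GDP-fucose, onto glycans or directly onto proteins. FUT1 and FUT2 attach it in α1,2 linkage to a terminal galactose and so make the H antigen, the base of the A and B blood groups. FUT4 and FUT9 attach it in α1,3 linkage and make the Lewis x structure, and FUT9 is the main enzyme for that structure in the brain. FUT8 adds the α1,6 core fucose of N-glycans. POFUT1 puts O-fucose on EGF-like repeats, as in Notch receptors, and POFUT2 on thrombospondin repeats. GMDS starts the synthesis of GDP-fucose from GDP-mannose.

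FUT1 has 2 annotated starts in RefSeq, build GRCh38.p14, and the window around the upstream one overlaps the window of FGF21, the next gene on the chromosome. Each window runs from 250 bases before to 50 bases after a start. The FUT1 windows lie at chr19:48755309-48755608 and chr19:48752592-48752891 on the minus strand, and the FGF21 window at chr19:48755274-48755573 on the plus strand. They are shown because FUT1 had the largest difference of the 10 genes and because FGF21 also rose, as given further on. Capitals mark the core of the CEBP-ATF response element (CARE), searched as TGATGNAA on both strands, and each line reads 5′ to 3′ on its gene's strand.
FUT1 upstream start: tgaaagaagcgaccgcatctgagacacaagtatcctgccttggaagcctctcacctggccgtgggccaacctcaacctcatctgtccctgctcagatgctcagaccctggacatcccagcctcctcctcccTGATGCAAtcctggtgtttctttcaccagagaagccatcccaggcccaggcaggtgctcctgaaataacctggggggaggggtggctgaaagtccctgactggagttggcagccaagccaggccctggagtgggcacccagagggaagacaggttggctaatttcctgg
FUT1 downstream start: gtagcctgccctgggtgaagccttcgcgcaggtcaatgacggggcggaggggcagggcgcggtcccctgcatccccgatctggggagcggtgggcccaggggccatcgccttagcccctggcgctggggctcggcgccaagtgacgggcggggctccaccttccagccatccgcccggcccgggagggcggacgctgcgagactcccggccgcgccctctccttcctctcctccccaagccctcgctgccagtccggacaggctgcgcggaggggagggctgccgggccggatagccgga
FGF21 start: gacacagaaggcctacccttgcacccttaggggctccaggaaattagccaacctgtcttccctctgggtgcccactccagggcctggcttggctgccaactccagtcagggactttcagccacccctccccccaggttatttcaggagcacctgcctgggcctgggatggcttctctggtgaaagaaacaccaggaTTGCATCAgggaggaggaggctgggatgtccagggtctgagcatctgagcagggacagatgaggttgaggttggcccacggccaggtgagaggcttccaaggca

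The upstream FUT1 window and the FGF21 window share 265 bases, and the starts lie 166 bases apart and point away from each other. The CARE core stands once in the shared stretch, between the starts, so the capitals in the FUT1 and FGF21 lines mark the same bases. It spans 119 to 112 bases before the FUT1 start and 54 to 47 bases before the FGF21 start. Of 35116 annotated windows of this length, 3.62% hold this core. The window of the downstream FUT1 start, 2717 bases away, holds no match to it. The array does not tell from which start the measured RNA came.

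**Figure D1:**
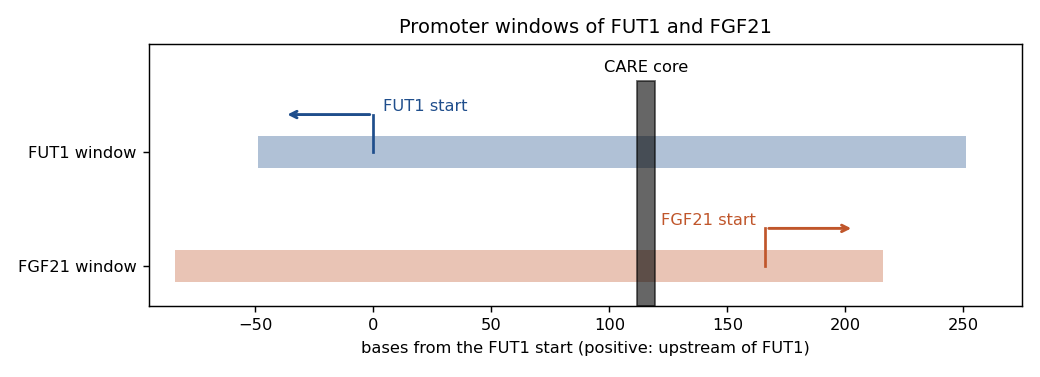
The RefSeq promoter windows of FUT1 (upstream start) and FGF21, in bases from the FUT1 start, with arrows for the direction of transcription and a dark band for the CARE core. The band lies in both windows, between the starts, which are 166 bases apart.

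The other motifs searched were the antioxidant response element core (TGACNNNGC, in 13.3% of all windows), the E-box (CACGTG, 7.26%), the CCAAT box (CCAAT, 34.6%), the TATA box (TATAAA, 11.5%) and the GC box (GGGCGG, 45%), each on both strands. The upstream FUT1 window held none of these letters. The downstream one held an antioxidant response element core, which overlapped a GC box. FUT8, whose values were lower with teriflunomide, also had a CARE core, in the first of its 3 windows. GMDS held an antioxidant response element core in 1 of its windows, and FUT11 an E-box. FUT10 had no window among those searched. These matches describe the letters only.

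Values are log2 intensities, 1 unit being a doubling, and each array had a lowest value of 2.18. Between 44.8% and 44.9% of probe sets lay within 0.1 of that floor. Array medians were 2.63 to 2.66 and 75th percentiles 7.88 to 7.90 with teriflunomide and 7.87 to 7.92 with DMSO. Depth does not apply to arrays; the number of arrays limits the precision. The cells carried neuroblastoma markers: of 8 adrenergic markers on the array, 6 stood above log2 5 on every array, GATA3, PHOX2A, ISL1, HAND2, CHGA and CHGB, while TH, the enzyme that makes the dopamine precursor, stayed under log2 3. They did not move together: of 7 tested, 3 rose (PHOX2A by 0.76, GATA3 by 0.35 and ISL1 by 0.22) and 1 fell. That is 57.1% called at a limma adjusted p under 0.05, against 58.6% of all genes. CHGA, a secretory granule protein, fell by 1.46 on the log2 scale, to 11.27 with teriflunomide, against 12.73 with DMSO (limma adjusted p = 5.21e-05). DBH, which makes noradrenaline, was dim and differed by -0.94 without passing. It reached the array median on the 3 DMSO arrays alone and so was tested through the group where it was high. With values under log2 5 raised to 5, the DBH difference was 0. Summed over these 8, the level ran from 66.6 to 67.4 with teriflunomide and from 67.1 to 68.7 with DMSO. Of 15 markers of blood, endothelial, epithelial and fibroblast cells, 11 stayed under log2 3 on every array, including PTPRC, CD3E, PECAM1 and EPCAM. COL1A1, COL3A1 and KRT8 were above log2 5 on every array. Of 5 tested, 1 rose and 0 fell (20% called, against 58.6% of all genes). This was COL1A1, by 0.94 on the probe set used. Its other tested probe sets differed by 0.95, which passed, and by 0.22 and -0.09, which did not. COL3A1 (0.37) and KRT8 (0.25) did not pass. The summed level of these 15 ran from 57.1 to 58.2 with teriflunomide and from 55.7 to 56.4 with DMSO; its part in the results below was not tested. In bulk RNA, fewer cells of a type and less RNA per cell cannot be told apart.

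FUT1 was read by 1 probe set. Its log2 value was 9.37, 9.28 and 9.21 on the teriflunomide arrays, against 2.23, 2.24 and 2.23 on the DMSO arrays. All 3 DMSO values lay within 0.1 of the floor, and all 3 teriflunomide values lay above the 75th percentile of their arrays. FUT1 averaged 9.29 ± 0.08 with teriflunomide and 2.24 ± 0.01 with DMSO (SD, n = 3 each), a difference of 7.05 on the log2 scale (limma SE 0.05) or 133-fold. Because DMSO sat at the floor, the size of that fold depends on the background model. With all values under log2 5 raised to 5, the difference was 4.29, or 19.5-fold. FUT1 reached the array median on the 3 teriflunomide arrays alone and so passed the filter on low values through the group where it was high.

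FUT2, which makes the same linkage as FUT1 and is the 4th protein-coding gene from it on one side, was at the floor. One of its probe sets ran from 2.18 to 2.19 with teriflunomide and stood at 2.18 with DMSO, and the other was at 2.37 on every array. It was the member gene with no probe set past the filter. FUT2 was thus not told apart from background in either group.

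**Figure D2:**
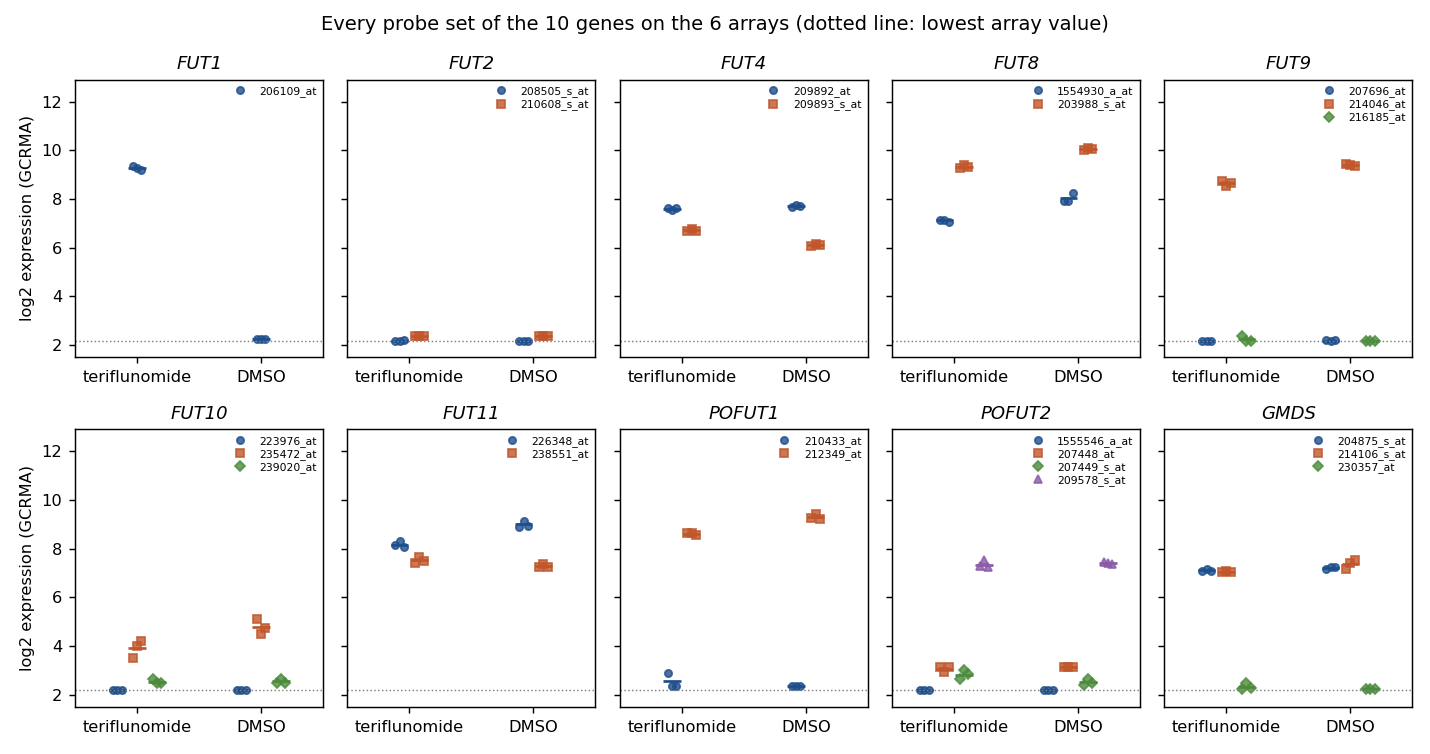
Log2 expression (vertical axis) of all 24 probe sets of the 10 genes on the teriflunomide and DMSO arrays; each point is 1 array, each short bar a group mean, and the dotted line the lowest array value, 2.18. FUT1 stands at 9.21 to 9.37 with teriflunomide and at the floor with DMSO, while FUT2 is at or near the floor in both groups.

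The α1,3 enzymes FUT4 and FUT9 gave different pictures. FUT9 had 1 bright probe set, with 8.73, 8.55 and 8.65 on the teriflunomide arrays and 9.44, 9.40 and 9.34 on the DMSO arrays. The groups did not overlap, and the difference was -0.75 (SE 0.06), or 1.68-fold lower with teriflunomide. Its other 2 probe sets were near the floor, between 2.18 and 2.38.

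FUT4 had 2 bright probe sets that moved apart. The brighter one read 7.61, 7.56 and 7.64 with teriflunomide and 7.66, 7.75 and 7.70 with DMSO, a difference of -0.10 (SE 0.04). The dimmer one read 6.68, 6.77 and 6.70 with teriflunomide and 6.08, 6.14 and 6.10 with DMSO, a difference of 0.61 (SE 0.04). On each of them the groups were apart, in opposite directions, so the direction of FUT4 is not settled by these arrays.

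FUT8, the core fucosyltransferase, was lower with teriflunomide on both of its probe sets. On the brighter one it read 9.28, 9.39 and 9.33 with teriflunomide and 10.01, 10.09 and 10.06 with DMSO. That is a difference of -0.72 (SE 0.04), or 1.65-fold lower. On the dimmer one it read 7.13, 7.15 and 7.07 with teriflunomide, against 7.94, 7.92 and 8.27 with DMSO. The difference there was -0.92 (SE 0.10), and the DMSO arrays varied more, with an SD of 0.20 against 0.04 for teriflunomide. No teriflunomide array reached a DMSO array on either probe set.

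Among the protein O-fucosyltransferases, POFUT1 was lower and POFUT2 lay close to 0. POFUT1 read 8.66, 8.63 and 8.56 with teriflunomide and 9.28, 9.42 and 9.24 with DMSO on its bright probe set, a difference of -0.69 (SE 0.06), or 1.62-fold lower. These groups did not overlap. POFUT2 read 7.28, 7.52 and 7.24 with teriflunomide and 7.46, 7.41 and 7.38 with DMSO on its bright probe set. That difference, -0.07 (SE 0.08), was smaller than its error, and the arrays of the groups were intermixed. The other 3 POFUT2 probe sets were dim, none above 3.14.

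FUT11 and FUT10, the genes now named POFUT4 and POFUT3, were less clear. FUT11 read 8.14, 8.30 and 8.05 with teriflunomide and 8.90, 9.15 and 8.95 with DMSO on its brighter probe set, a difference of -0.84 (SE 0.09). On the dimmer one it read 7.43, 7.64 and 7.49 with teriflunomide and 7.26, 7.36 and 7.24 with DMSO, a difference of 0.24 (SE 0.07). Both probe sets were well above the floor and separated the groups, in opposite directions. FUT10 was dim: its highest probe set read 3.50, 4.0 and 4.22 with teriflunomide and 5.11, 4.48 and 4.76 with DMSO. The FUT10 difference of -0.88 (SE 0.25) shrank to -0.04 with values under log2 5 raised to 5.

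GMDS, the first enzyme of GDP-fucose synthesis, was slightly lower on both bright probe sets. It read 7.05, 7.07 and 7.03 with teriflunomide and 7.17, 7.41 and 7.54 with DMSO on the probe set used for the gene, a difference of -0.32 (SE 0.10). On the other it read 7.07, 7.16 and 7.10 with teriflunomide and 7.16, 7.26 and 7.26 with DMSO, a difference of -0.12 (SE 0.04). The groups came close on both but did not overlap. The remaining GMDS probe set was dim, between 2.22 and 2.50.

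Of the 10 genes, 9 had a probe set past the filter. On the brightest probe set of each, 1 was higher (FUT1) and 6 were lower (FUT8, FUT9, FUT10, FUT11, POFUT1 and GMDS) at a limma adjusted p under 0.05 over all genes, while FUT4 and POFUT2 did not pass. Among all genes tested, 58.6% passed that threshold, 29.7% higher and 28.9% lower, so passing it was common. The median log2 difference over all genes was 0.0015. By probe set, 15 of the 24 passed the filter, of which 3 were called higher, 7 lower and 5 neither, where 48.8% of all tested probe sets were called, 23.7% higher and 25.2% lower. The groups did not overlap for 8 of the 9 genes, 1 higher and 7 lower, where this held for 67% of all genes, 33.9% higher and 33.1% lower. By probe set they did not overlap for 12 of 15, 3 higher and 9 lower, where this held for 60%, 29.3% higher and 30.8% lower. The 9 below the filter had no value above 2.89. Since the members were chosen on this comparison, nothing is read from these counts. FUT1 stood apart in size: the other bright probe sets differed by between -0.92 and 0.61.

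**Figure D3:**
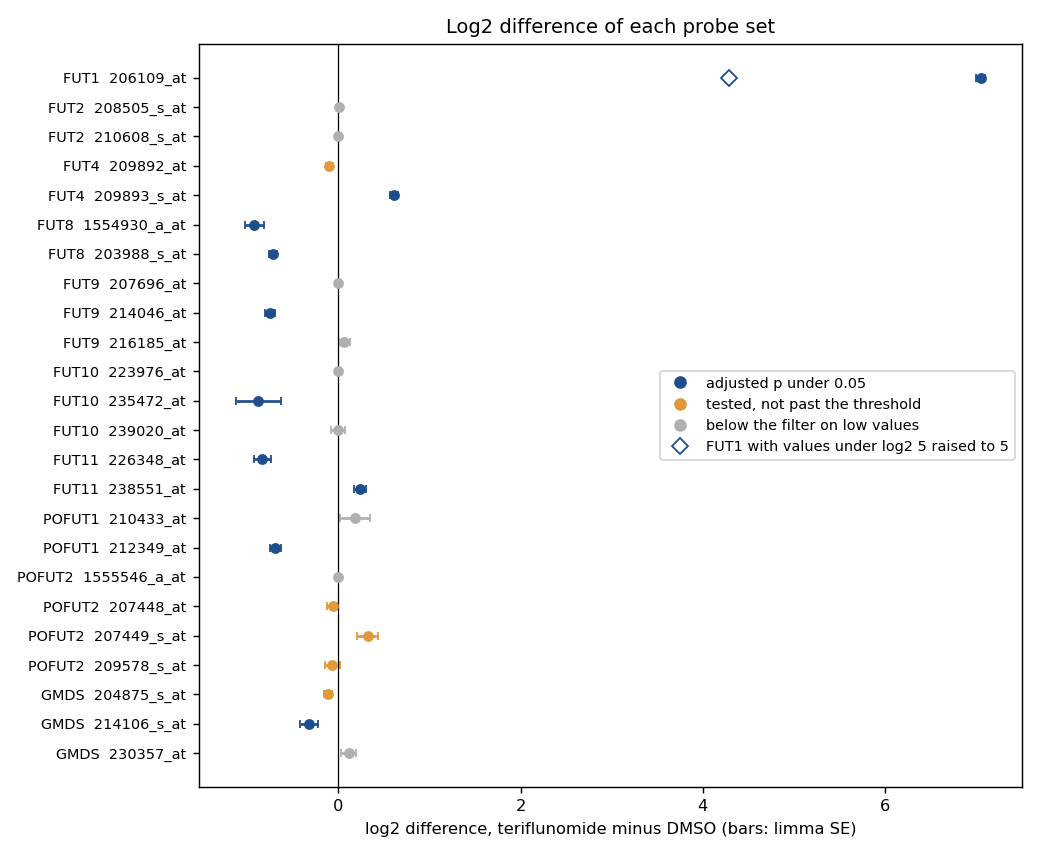
Log2 difference, teriflunomide minus DMSO, of each of the 24 probe sets with limma's SE as bars; colours mark the threshold and the filter, and the open diamond is FUT1 with values under log2 5 raised to 5. FUT1 stands at 7.05 (4.29 after raising), and the paired probe sets of FUT4 and of FUT11 fall on opposite sides of 0.

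A sign of RNA or target length differed between the groups beside all of these values. The 3′ minus 5′ signal of the ACTB control was 1.55, 1.63 and 1.68 with teriflunomide and 1.36, 1.39 and 1.32 with DMSO (exact permutation test, two-sided p = 0.1, the smallest that 3 arrays against 3 allow). For the GAPDH control the means were 0.063 with teriflunomide and 0.049 with DMSO (exact permutation p = 0.4). The part of RNA length in the opposed probe sets of FUT4 and FUT11 was not tested.

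FGF21, a secreted hormone induced by metabolic stress, rose beside FUT1. It read 5.13, 5.32 and 5.64 with teriflunomide and 3.18, 2.42 and 2.42 with DMSO. The difference was 2.69 (SE 0.25, limma adjusted p = 0.000474), and the groups did not overlap. FGF21 was dim even with teriflunomide. With values under log2 5 raised to 5 its difference was 0.36 and no longer passed (limma adjusted p = 0.0913), where its alternatives ran from 4.24e-05 to 0.0913.

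Of the 12 protein-coding genes nearest to FUT1 in gene order, 6 on each side, 8 were tested. Of these, 4 rose, 0 fell and 4 did not pass (limma, adjusted over all genes, where 29.7% were higher). Besides FGF21, these were PPP1R15A, a subunit that directs a phosphatase to the translation factor eIF2α, HSD17B14, a steroid dehydrogenase, and CA11, a carbonic anhydrase relative. PPP1R15A rose by 2.74 (SE 0.11) to 6.46 with teriflunomide, against 3.72 with DMSO, and its other probe set differed by 2.47. With values under log2 5 raised to 5, these differences were 1.46, which still passed, and 0.28. HSD17B14 rose by 1.82 (SE 0.08) on the probe set used, a value that the raising did not change; its other 3, dimmer, differed by 1.42 to 2.06, and after raising those with the lowest signal differed by 0 and 0.51. CA11 rose by 0.65 (SE 0.10).

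The other tested neighbours did not pass. BCAT2, a mitochondrial aminotransferase that follows FGF21, averaged 9.40 ± 0.10 with teriflunomide and 9.26 ± 0.13 with DMSO (SD, n = 3 each). Its difference of 0.14 did not pass (limma adjusted p = 0.198). With the replicate number as a block BCAT2 passed (0.043), where its alternatives ran from 0.043 to 0.44. RASIP1 (0.55) and PLEKHA4 (0.37) were dim and did not pass (limma adjusted p = 0.0753 and 0.0824), and MAMSTR stood at -0.04. RASIP1 reached the array median on the 3 teriflunomide arrays alone and so passed the filter through the group where it was high. With values under log2 5 raised to 5, the RASIP1 and PLEKHA4 differences were 0. RASIP1 passed in at least 1 alternative, that without teriflunomide replicate 3 (limma adjusted p = 0.0106), where its alternatives ran from 0.0106 to 1. PLEKHA4 passed in at least 1, that without teriflunomide replicate 2 (0.0223), where its alternatives ran from 0.0223 to 1. NTN5, FUT2, IZUMO1 and TULP2 were below the filter.

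**Figure D4:**
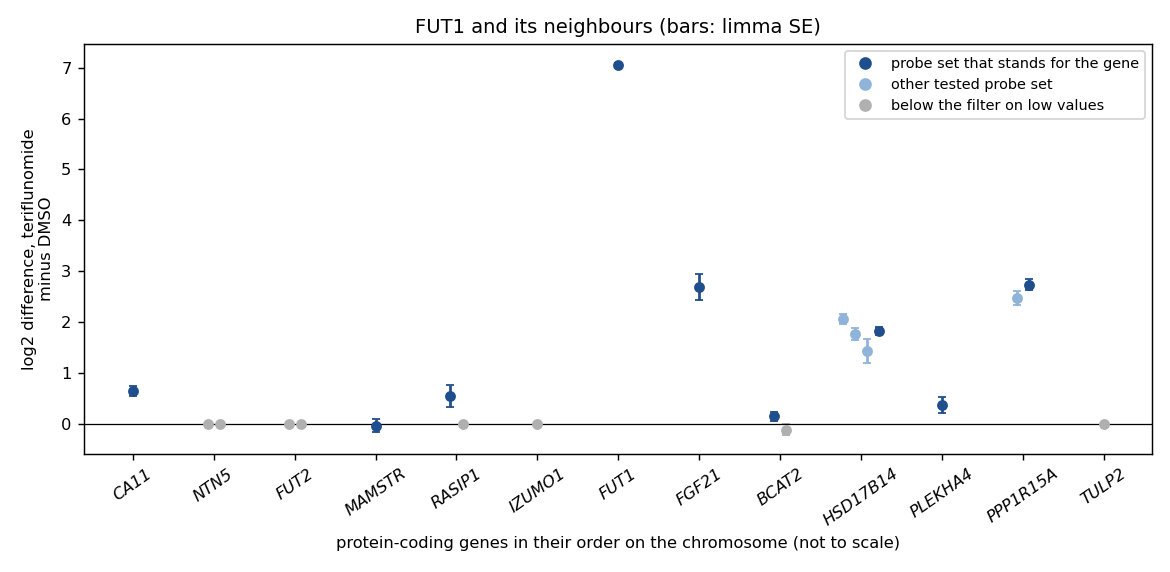
Log2 difference, teriflunomide minus DMSO, with limma's SE, of every probe set of FUT1 and of the 6 protein-coding genes on either side, in chromosomal order and not to scale. FUT1 (7.05), FGF21 (2.69), HSD17B14 and PPP1R15A lie well above 0, while BCAT2, between FGF21 and HSD17B14, lies at 0.14.

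The genes whose profile over the 6 arrays was most like that of FUT1 were found by the root mean square difference of log2 values, each gene centred on its own mean, among 11997 other genes. AKR1C3, an aldo-keto reductase, was nearest (0.58), followed by GPNMB (0.78), LAMP3 (0.80), KLHDC7B (0.84) and ALDH1L2 (0.92). All 5 averaged under log2 5 in DMSO and above log2 8 with teriflunomide. AKR1C3 averaged 11.76 with teriflunomide and 3.99 with DMSO, and it has near-identical relatives that may share its probe set. Of the 5, LAMP3 had DMSO values nearest to each other, 2.79 to 2.91, against 8.15 to 8.35 with teriflunomide.

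Outside the 10 genes, the pathway was followed in 77 genes of 7 lists, of which 64 were tested. Of these, 24 rose, 19 fell and 21 did not pass (limma, adjusted over all genes), or 67.2% called, against 58.6% of all genes. Their median log2 difference was 0.04, against 0.0015 over all genes. Of the 64, 4 rose and 7 fell at least 2-fold and past the threshold. Among all genes, called or not, 5.27% and 4.54% differed by that much upward and downward. The lists were described, not tested as sets.

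Of 8 tested genes of GDP-fucose supply, 4 rose and 1 fell (62.5% called, against 58.6% of all genes), with a median of 0.32. MPI, which makes mannose 6-phosphate for GDP-mannose, rose by 1.08 (SE 0.07) on the probe set used, but a second, dimmer probe set differed by -0.98, and their mean did not pass. PMM1, a phosphomannomutase, rose by 0.66 and FPGT, of the fucose salvage route, by 0.45. SLC35C2, a relative of the GDP-fucose transporter listed here as SLC35H1, rose by 0.43 on the probe set used, with 0.23 on another that did not pass. The Golgi GDP-fucose transporter SLC35C1 differed by -0.23 on a dimmer probe set, which did not pass. On the probe set used SLC35C1 fell, at 5.55 ± 0.06 with teriflunomide and 6.26 ± 0.33 with DMSO (SD, n = 3 each). Its difference of -0.71 (SE 0.17, limma adjusted p = 0.0152) missed the threshold without either of 2 teriflunomide arrays (adjusted p = 0.0529 without replicate 1 and 0.0513 without replicate 2) and with no filter (0.0534), where its alternatives ran from 0.00343 to 0.0534.

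GFUS, which completes GDP-fucose synthesis after GMDS, differed by 0.01 (SE 0.03, limma adjusted p = 0.907). FCSK, the fucose kinase of salvage, differed by 0.21 and did not pass (limma adjusted p = 0.0778), nor did GMPPA at 0.02. FCSK passed without teriflunomide replicate 3 (adjusted p = 0.0413) and with quantile normalization (0.0362), where its alternatives ran from 0.0362 to 0.198. FUCA1, the lysosomal enzyme that removes fucose, rose by 0.40, while FUCA2 was at the floor. The remaining α1,3 and α1,4 enzymes had little signal. FUT3 and FUT6 were below the filter, FUT5 stood at 3.45 with teriflunomide and 3.29 with DMSO, and FUT7 at 4.57 with teriflunomide and 4.58 with DMSO, neither passing.

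Genes of the O-fucose and O-glucose list, not all of which act on O-fucose, moved both ways. Of 10 tested, 4 rose and 4 fell (80% called, against 58.6% of all genes). LFNG, a fringe enzyme that adds N-acetylglucosamine to O-fucose on Notch, fell by 1.36 on the log2 scale, to 7.38 ± 0.13 with teriflunomide, against 8.74 ± 0.12 with DMSO (SD, n = 3 each; limma adjusted p = 0.000159). RFNG, a second fringe enzyme, rose by 1.26, to 8.84 ± 0.12 with teriflunomide, against 7.58 ± 0.09 with DMSO (limma adjusted p = 0.000137). The third fringe gene, MFNG, was below the filter. XXYLT1 and GXYLT2, xylosyltransferases of the O-glucose chain, differed by -1.28 and 0.69.

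Of 12 tested genes that trim and branch N-glycans, the substrates of FUT8, 4 rose and 5 fell (75% called, against 58.6% of all genes). MAN1C1, a Golgi mannosidase, fell by 2.06 on the log2 scale (SE 0.24), and its other probe set differed by -1.96. MAN2A1, a mannosidase that acts after it, fell by 0.88. Its relative MAN2A2 rose by 0.73 on the probe set used, with 0.20 on another that did not pass. MAN2A2 did not pass under every alternative (limma adjusted p from 3.95e-05 to 0.152). MGAT4A, a branching enzyme, rose by 0.71.

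Of 15 tested genes that build the galactose-bearing acceptor chains, 8 rose and 4 fell (80% called, against 58.6% of all genes). B3GALT2, a galactosyltransferase, rose by 1.39 (SE 0.18), and B3GALT4, of ganglioside synthesis, by 0.62. B3GALT4 was dim, at 3.60 with teriflunomide and 2.98 with DMSO, and its difference was 0 with values under log2 5 raised to 5. GCNT2, which branches such chains, fell by 1.03 and B4GALT6, of lactosylceramide synthesis, by 0.98.

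Sialyltransferases add sialic acid to glycans, some of them to the same terminal galactose that FUT1 can modify. Of 16 tested, 3 rose, 5 fell and 8 did not pass (50% called, against 58.6% of all genes). ST6GAL2 fell by 1.64 (SE 0.11) and ST6GALNAC3 by 1.10 (SE 0.07). The polysialyltransferases ST8SIA4 and ST8SIA2 rose by 1.98 (SE 0.15) and 0.53 (SE 0.08), but the second, dimmer ST8SIA2 probe set differed by -0.26 and did not pass. With the mean of both probe sets the ST8SIA2 difference was 0.13 and was no longer called (limma adjusted p = 0.0931), where its alternatives ran from 0.000279 to 0.0931.

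**Figure D5:**
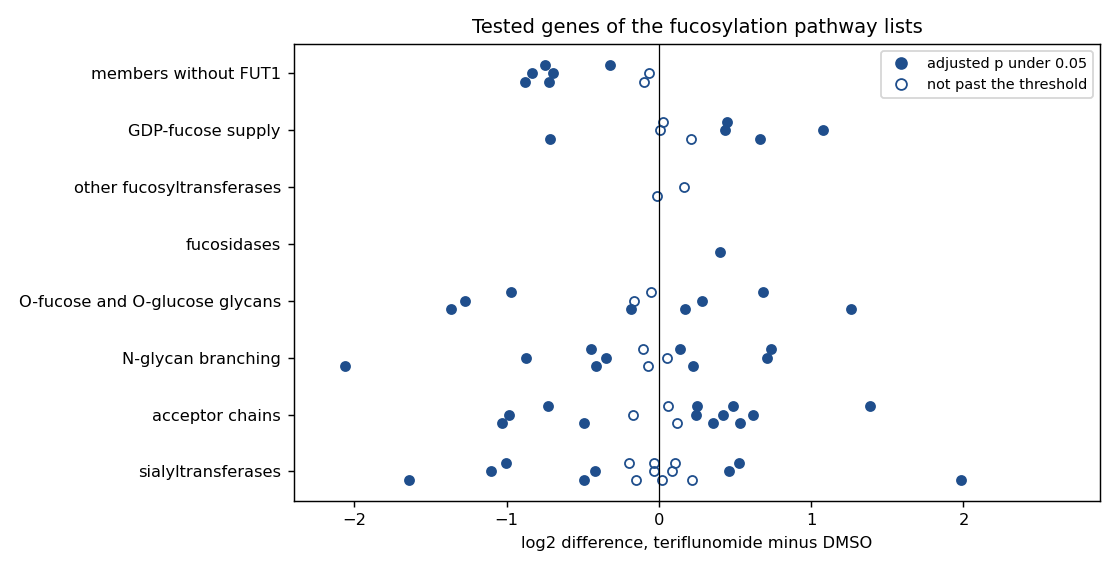
Log2 difference, teriflunomide minus DMSO, of the tested genes of the 7 pathway lists and, in the top row, of the 8 tested members other than FUT1; filled points passed the threshold over all genes. Points lie on both sides of 0 in every list with more than 2 tested genes, and the members other than FUT1 lie below 0 on the probe sets used.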

How the data were processed

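The log2 intensities were deposited by the authors, who used GCRMA according to the submitters' processing notes; no version or setting is given. The method takes background from probe sequence and equalizes the arrays' distributions, which would hide a shift common to all genes. Gene symbols are those of the platform annotation (41097 probe sets with 1 symbol, of which 41091 are not among the 62 controls, 1801 with several, 11777 with none). Probe sets at or above their array's median on at least 3 of 6 arrays were tested (27290), and the one with the highest mean stood for its gene (11998 genes). Groups were compared by limma 3.58.1 in R 4.3.3 (lmFit, eBayes, no covariates), two-sided, with Benjamini-Hochberg adjustment and a threshold of 0.05; SE is limma's. The fit was tested on simulated data. Controls were compared by exact permutation tests.

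Members, lists and motifs were chosen with earlier results of these data known. Named were all members, all genes of the 3 short lists, the 2 largest increases and decreases past the threshold in each other list, the neighbours of FUT1 and its 5 nearest profiles. Promoter windows and gene order are RefSeq's (GRCh38.p14); the arrays carry no build. Alternatives were other filters, normalizations, probe set choices, variance models, a floor, a replicate block and leaving out each array. No arrays held identical values. Python 3.11.15 was used for tables and drawing.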

Additional observations from a re-analysis of the deposited data

How the results depend on the processing

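On the probe set that stands for each gene, or the mean of its probe sets, FUT1, FUT8, FUT9, FUT10, FUT11, POFUT1 and GMDS kept their sign under the alternatives run; FUT4, FUT10, POFUT2 and GMDS have no value with the 75th percentile filter, and second probe sets were not rerun alone. Of 116 values of the tested members other than FUT1, 5 moved by more than the spread between replicates. FUT10 did so with values under log2 5 raised to 5 (-0.04). The others were the means over probe sets of FUT4 (0.26), FUT8 (-0.82), FUT11 (-0.30) and POFUT2 (0.06). There FUT4 and POFUT2, not called, changed sign. FUT1 also moved by more than that spread, to 4.29, with values under log2 5 raised to 5. It was at 7.01 to 7.09 without each array in turn. Pathway genes that fell numbered 12, not 19, with the filter at the 75th percentile, where fewer genes were tested, and 17 to 18 without each array in turn; those that rose numbered 19 with that filter, 25 with quantile normalization and 20 to 24 without each array in turn, against 24. Deviations of same-numbered arrays correlated at 0.13, 0.15 and -0.05, and those of differently numbered arrays at -0.19 to 0.06. Pairing by replicate number is therefore neither shown nor excluded. With the replicate number as a block, 3359 genes rose and 3282 fell, against 3560 and 3471, and in the pathway 22 rose and 18 fell. Of 582 values of other named genes, 8 lost and 7 gained the threshold and 0 reversed. BCAT2 passed with the block (limma adjusted p = 0.043). FUT1 in DMSO and FUT2 lay at or near the floor, so their true level there is unknown. PPP1R15A in DMSO, FUT10 and FGF21 were dim, and their differences shrank with values under log2 5 raised to 5.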
